A study of Homo sapiens with 4 samples.

Results

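The genes described here are the cyclins, the cyclin-dependent kinases (CDKs) and their inhibitors, the phosphatases and kinases that switch CDKs on and off, and the E2F, DP and RB proteins with the MuvB, B-MYB and FOXM1 factors that act beside them. They are a list of 52 genes chosen by symbol, out of 63677 genes in the table, and where a symbol had several rows the row with the most reads was kept. All 52 were found, and 50 had enough reads to be tested. The other two, CDKN2A and CDKN2B, were close to 0 in all libraries.

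A dividing cell is carried from phase to phase by CDKs, each of which needs a cyclin partner to be active. D-type cyclins with CDK4 or CDK6, and then E-type cyclins with CDK2, phosphorylate the RB family, which releases E2F factors to switch on genes for DNA replication. A-type and B-type cyclins with CDK2 and CDK1 take the cell through DNA synthesis and into mitosis, where the MuvB complex with B-MYB and FOXM1 drives the late genes, and INK4 and CIP/KIP inhibitors hold the kinases back.

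RNA came from MDA-MB-231, an established human cell line from a triple-negative breast tumor, meaning one without estrogen receptor, progesterone receptor or HER2 amplification. The siCt cells received a control siRNA and the siAxl cells a commercial pool of siRNAs against AXL, a receptor tyrosine kinase that this line carries at a high level, with 2 libraries sequenced per group. All 4 libraries are of this 1 line and received transfection reagent and an siRNA. The time between transfection and harvest was not given in the sources used here, and nothing in the labels says whether libraries of a group came from separate cultures, so the p-values measure only the spread between these libraries, which may be technical.

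AXL itself had 29189 and 30617 normalized counts in the siCt libraries and 8658 and 7141 in the siAxl libraries. Normalized counts are reads divided by a size factor for the depth of the library. The siAxl level was 26.4% of siCt, and the log2 fold change was -1.93 ± 0.09 (SE, n = 2 per group, limma adjusted p = 0.000585). Libraries held 39574387 to 44585773 reads. Mitochondrial genes took 3.70% and 3.78% of the reads in the libraries with replicate number 1 and 2.11% and 2.28% in those with number 2. The mesenchymal markers VIM (86751 to 99296 normalized counts) and CD44 (33968 to 36518) were high, the receptors ESR1 and PGR did not exceed 3.25, and the leukocyte marker PTPRC did not exceed 16.7. The epithelial marker EPCAM was not near 0 (565 to 771), and CDH1 went from 90.1 and 94.3 to 36.9 and 22.6.

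Among the 50 tested regulators, 17 were lower and 5 were higher in siAxl at an adjusted p under 0.05, and 28 did not pass. The lower ones were 34% of those tested, against 7.91% of all 16064 genes tested, and the higher ones were 10%, against 10.8% of all genes. By sign alone 40 of the 50 were lower, beside 50.3% of all genes. The median log2 fold change of the 50 was -0.20, beside a median of -0.0022 over all genes. The siAxl pair of libraries lay wholly below the siCt pair for 31 regulators and wholly above it for 8, while 30.5% and 30.6% of all genes were separated in these directions. In RNA from whole cultures, fewer cells in a phase of the cycle and less RNA per cell cannot be told apart.

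The lower regulators stood between 87.3% of siCt for CDC25B and 64.1% for CCNE2, and the rises ran from 1.17-fold for CDK7 to 2.15-fold for CCND2. Without any 1 of the 4 libraries, 5 of the 17 falls (CCNE2, CDK5, CDC25A, WEE1 and E2F1) and 4 of the 5 rises (CCND2, CCNG1, CCNG2 and CDKN1C) still passed. The library siAxl 1 weighed most. Without it 5 regulators were called lower, beside 2.57% of all genes, the other 12 lost their calls, and the median log2 fold change was -0.11. The lower calls numbered 23 without siCt 1, 12 without siCt 2 and 14 without siAxl 2, where 10.8%, 5.82% and 4.02% of all genes were called lower. CCND1 and CDC25B lost their calls without each of the other libraries too, CCND3 and CDK4 without siCt 2 or siAxl 2, PKMYT1 without siCt 1 or siAxl 2, and CKS1B without siCt 2. With all 27108 genes that had at least 1 read tested, 4 falls (CCNE2, CDK5, CDC25A and E2F1) and the same 4 rises passed, with 1.25% of all genes lower and 2.79% higher.

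**Figure D1:**
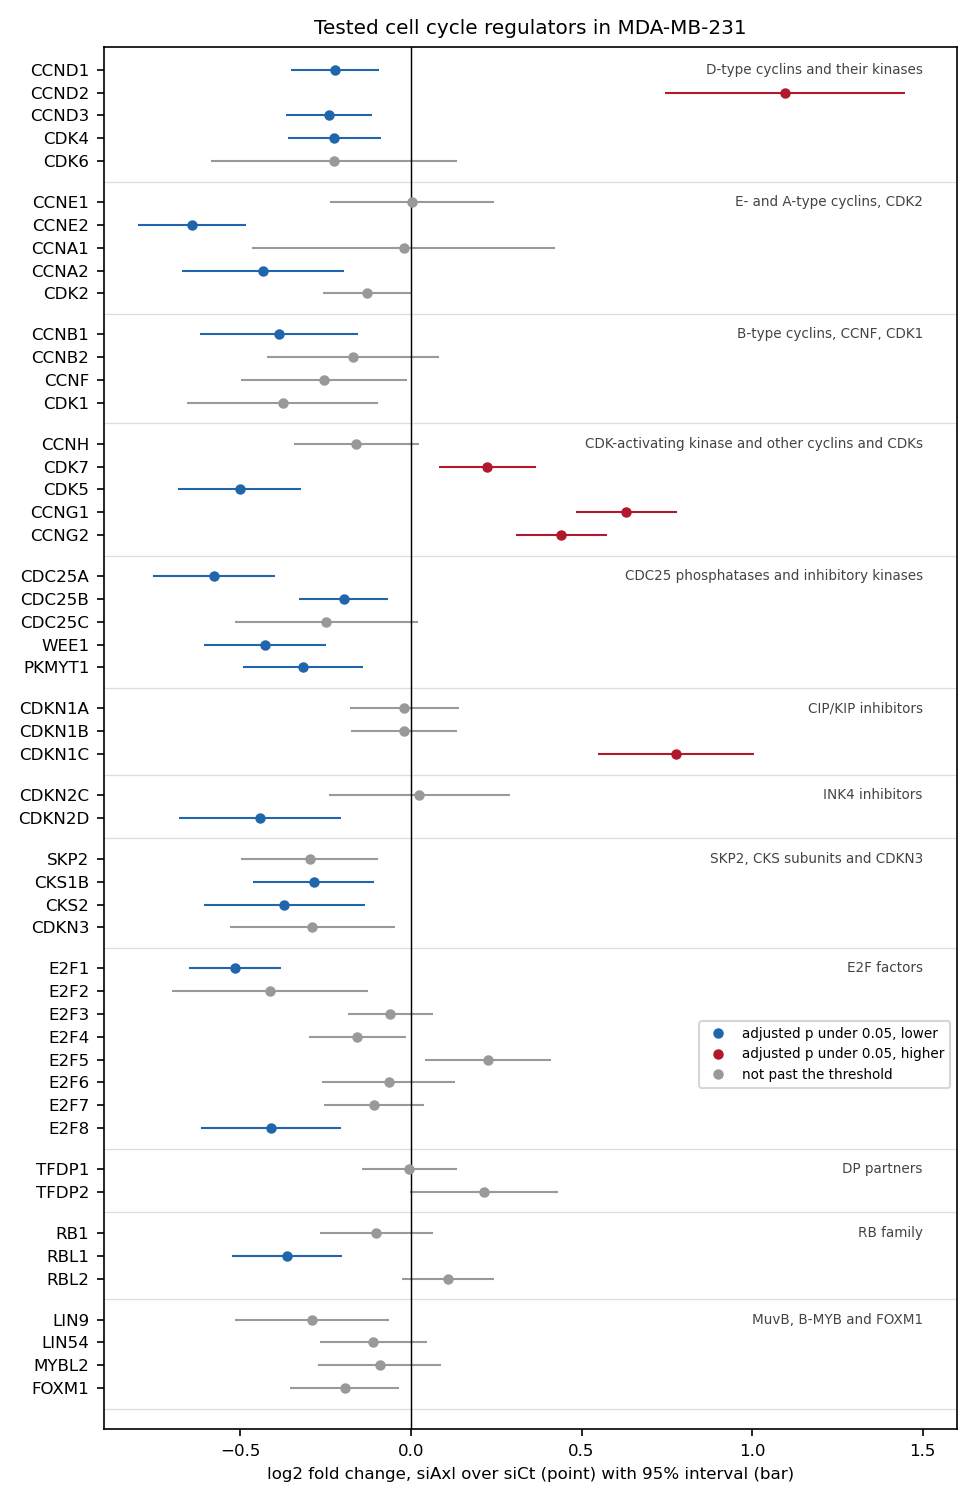
Log2 fold change of siAxl over siCt for the 50 tested regulators, grouped by role, with 95% intervals from limma as bars. Blue points (17) were lower and red points (5) higher at an adjusted p under 0.05, and most of the 28 grey points also lie left of 0.

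D-type cyclins open the cycle in response to growth signals. Cyclin D1 (CCND1) had 32432 and 32760.0 normalized counts in siCt and 28078 and 27789 in siAxl. The siAxl libraries were both lower, at 85.7% of siCt (log2 fold change -0.22 ± 0.05, SE, adjusted p = 0.032). Cyclin D3 (CCND3) went from 8682 and 9038 to 7420.2 and 7583, again with no overlap (-0.24 ± 0.05, adjusted p = 0.0249). CCND1 shares 497 exon bases with LTO1 on the other strand, which had 1472.5 reads on average against 30312 for CCND1. CCND2, encoding the third D-type cyclin, moved the other way. It had 71.9 and 82.3 normalized counts in siCt and 169 and 162 in siAxl, 2.15-fold higher (log2 fold change 1.09 ± 0.15, adjusted p = 0.00517). Its level remained far under that of its relatives. In RPKM, reads scaled by the length of a gene's exons and the depth of the library, CCND2 was at 0.252 in siCt and 0.531 in siAxl, beside 158 and 133 for CCND1 and 35.8 and 29.7 for CCND3.

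The kinase partners of these cyclins are CDK4 and CDK6. CDK4 had 4870.2 and 4906 normalized counts in siCt and 4050.0 and 4322 in siAxl, and the lower siAxl values passed the test (-0.22 ± 0.06, adjusted p = 0.0372). CDK4 shares 1369 exon bases with TSPAN31 on the other strand, which had 998 reads on average and a log2 fold change of 0.09. CDK6 had 5651 and 7689.7 in siCt and 5054 and 6287 in siAxl. These groups overlapped, because the replicates of each group lay far apart, and the 95% interval of the log2 fold change reached from -0.59 to 0.14 (adjusted p = 0.35).

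The E-type cyclins bind CDK2 at the entry into DNA synthesis, and the pair differed. CCNE2 had 1843 and 1818 normalized counts in siCt and 1131 and 1215 in siAxl. Both siAxl values were far below both siCt values, which themselves were close together, and the fall was the largest of the regulators in this test (-0.64 ± 0.07, adjusted p = 0.00265). CCNE1 had 512 and 453 in siCt and 460.4 and 506 in siAxl, with overlapping groups and a 95% interval of -0.24 to 0.24. Per length, CCNE2 was at 9.76 RPKM and CCNE1 at 4.44 RPKM in siCt, and in siAxl they were at 6.13 and 4.35. CCNE2 shares 1629 exon bases with INTS8 on the other strand, which had 1995.5 reads on average and a log2 fold change of -0.07.

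Cyclin A2 (CCNA2) serves CDK2 and then CDK1. Its normalized counts were 6123 and 6988 in siCt and 4418 and 5305 in siAxl. Replicate 2 was the higher library in both groups, the groups did not overlap, and CCNA2 was at 74.2% of siCt (-0.43 ± 0.10, adjusted p = 0.0275). It shares 254 exon bases with EXOSC9 on the other strand, which itself was lower in siAxl (-0.53 ± 0.06, adjusted p = 0.00274), and their part in each other's reads was not tested. The germline cyclin CCNA1 was low at 59.6 to 72.9 normalized counts. CDK2 was at 91.5% of siCt, with a 95% interval that ended at 0 (adjusted p = 0.154).

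Of the mitotic group, CCNB1, the main cyclin of CDK1, passed the test. It had 8684 and 9772 normalized counts in siCt and 6417 and 7729 in siAxl. Both siAxl values were under both siCt values, at 76.6% of siCt (-0.39 ± 0.10, adjusted p = 0.036). CDK1 had a like difference, from 5114 and 6126 to 3878 and 4799, again without overlap, but did not pass (-0.38 ± 0.12, adjusted p = 0.0691). CDK1 passed in 2 of 9 other settings, DESeq2 on the reads (adjusted p = 0.0129) and a fit with a replicate block. It did not pass in edgeR (adjusted p = 0.0734), nor in limma with TMM scaling (0.0736) or library size scaling (0.0550). CCNB2 (-0.17) and CCNF (-0.25), the cyclin that is the substrate-binding part of a ubiquitin ligase, were lower by sign with adjusted p of 0.316 and 0.133.

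Of the 5 remaining cyclins and CDKs, 3 were called higher and 1 lower, beside 10.8% and 7.91% of all genes. Cyclin G1 (CCNG1), a p53 target, had 2307 and 2232 normalized counts in siCt and 3387 and 3649 in siAxl. The siAxl libraries were 1.55-fold higher with no overlap (0.63 ± 0.06, adjusted p = 0.00236). Cyclin G2 (CCNG2), a FOXO target that is known to be high in resting cells, had 3559 and 3724 in siCt and 4862 and 5024 in siAxl, 1.36-fold higher (0.44 ± 0.06, adjusted p = 0.00431). CDK7, the catalytic part of the CDK-activating kinase, was 1.17-fold higher, at 1731 and 1772 in siCt and 2079 and 2011 in siAxl. That call (0.22 ± 0.06, adjusted p = 0.0427) was lost in DESeq2 (adjusted p = 0.0797), with scaling by library size, and without any 1 library. Its cyclin partner CCNH was at 89.6% of siCt (adjusted p = 0.2). CCNH shares 771 exon bases with RASA1 on the other strand. RASA1 had 7180.75 reads on average against 1346.5 for CCNH, and a log2 fold change of 0.06.

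CDK5, an atypical CDK best known from neurons, had 1286 and 1404 normalized counts in siCt and 977 and 921 in siAxl. It fell to 70.5% of siCt with no overlap (-0.50 ± 0.08, adjusted p = 0.00739). CDK5 shares 331 exon bases with SLC4A2 on the other strand, which had 10163.75 reads on average against 1145 for CDK5 and a log2 fold change of 0.01. Whether reads were counted by strand was not given in the sources used here.

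**Figure D2:**
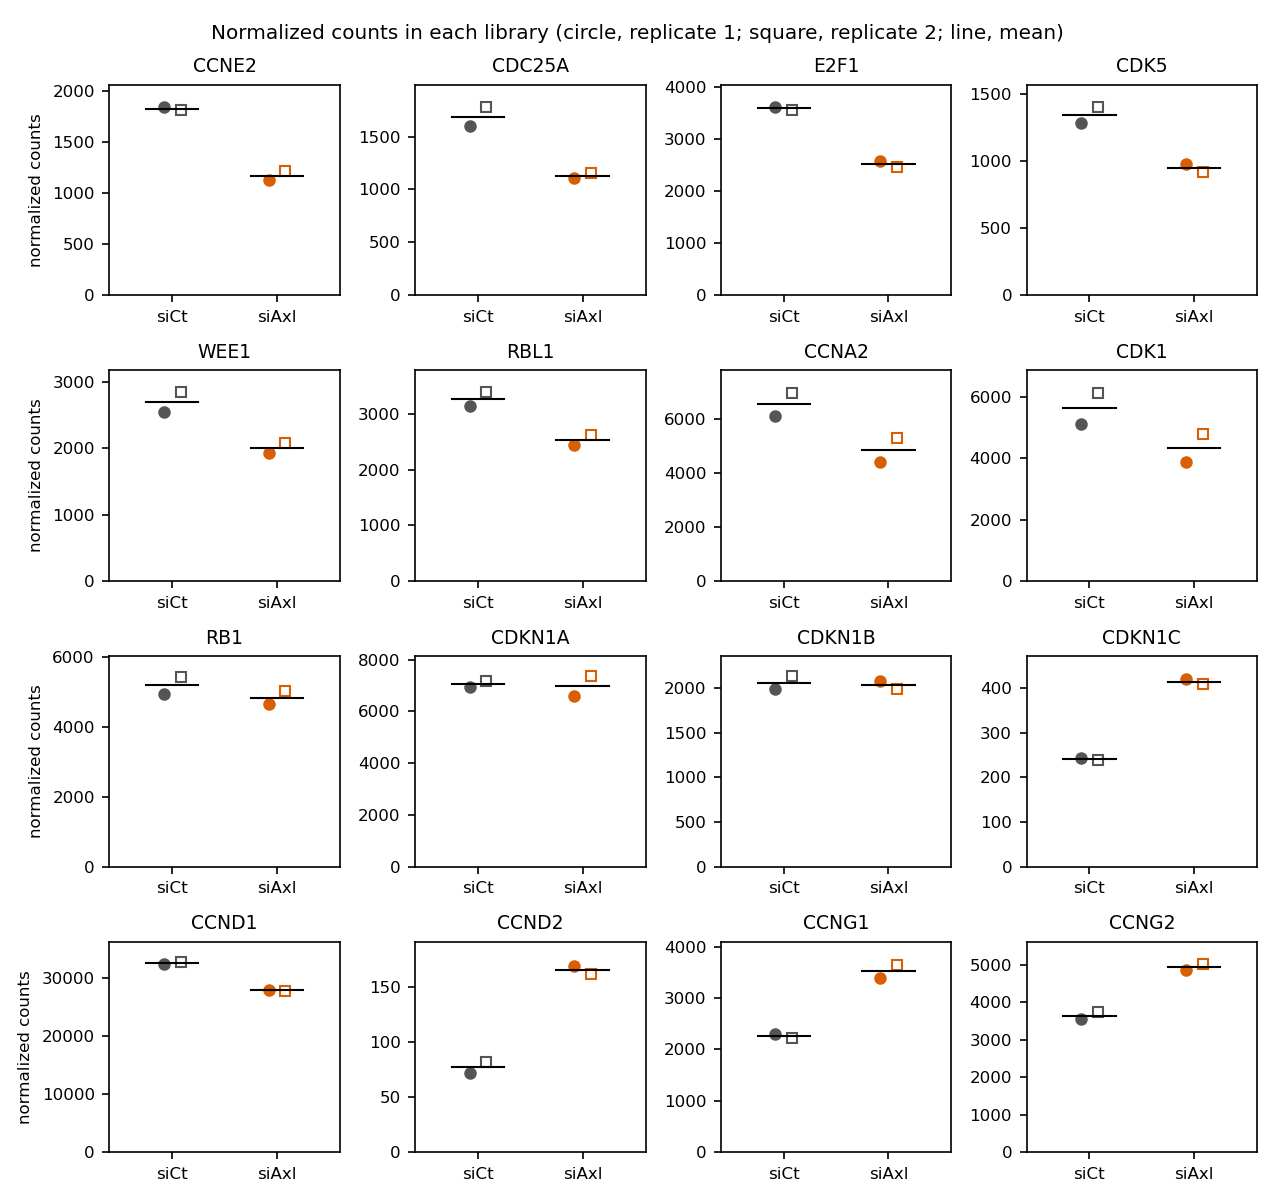
Normalized counts of 16 regulators in each of the 4 libraries, on axes that start at 0, with a line at the mean of each group. The siAxl points lie below the siCt points in CCNE2, CDC25A, E2F1, CDK5, WEE1, RBL1, CCNA2, CDK1 and CCND1. They lie above in CCND2, CDKN1C, CCNG1 and CCNG2, and overlap in CDKN1A, CDKN1B and RB1. Replicate 2 is the higher library in both groups in CCNA2 and CDK1, and also in CDC25A, WEE1, RBL1, RB1, CDKN1A and CCNG2.

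The CDC25 phosphatases remove the inhibitory phosphates of CDKs, and WEE1 and PKMYT1 put them on. All 5 genes of this pair of opposed activities had both siAxl libraries below both siCt libraries, as did 30.5% of all genes. Of the 5, 4 passed the test, beside 7.91% of all genes called lower. CDC25A, which acts from G1 onwards, had 1598 and 1778 normalized counts in siCt and 1109 and 1152 in siAxl. It was at 67.0% of siCt (-0.58 ± 0.08, adjusted p = 0.00463), next to CCNE2 in size among the falls. WEE1 went from 2546 and 2842 to 1929.8 and 2072, at 74.3% of siCt with no overlap (-0.43 ± 0.08, adjusted p = 0.0117). PKMYT1, the membrane-bound relative of WEE1, went from 1273 and 1167 to 970.3 and 988 (-0.32 ± 0.07, adjusted p = 0.0282). It overlaps PAQR4 on the other strand over 1233 exon bases, and PAQR4 had a log2 fold change of 0.06. CDC25B went from 7775 and 7922 to 6667 and 7034. Its call was at the edge of the threshold (-0.20 ± 0.06, adjusted p = 0.0492) and was lost in DESeq2 (adjusted p = 0.0561). CDC25C, which acts at mitosis, was at 84.5% of siCt (adjusted p = 0.177). It shares 293 exon bases with FAM53C on the other strand. FAM53C had 3388.5 reads on average against 682.75 for CDC25C, and a log2 fold change of -0.0054.

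The CIP/KIP inhibitors bind cyclin-CDK pairs. CDKN1A (p21), a p53 target, had 6928 and 7174 normalized counts in siCt and 6577 and 7357 in siAxl. The siAxl values lay on either side of both siCt values, and the 95% interval of the log2 fold change was -0.18 to 0.14. CDKN1B (p27) had 1988 and 2139.9 in siCt and 2077 and 1993 in siAxl, where both siAxl values lay between the siCt values (95% interval -0.17 to 0.14). CDKN1C (p57) was the inhibitor that rose. It had 243 and 239 in siCt and 419.6 and 408 in siAxl, 1.72-fold higher with tight replicates (0.78 ± 0.10, adjusted p = 0.00396). Per length, CDKN1C was the lowest of these inhibitors, at 2.28 RPKM in siCt and 3.83 in siAxl, beside 54.2 and 52.4 for CDKN1A and 17.2 and 16.6 for CDKN1B.

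INK4 inhibitors bind CDK4 and CDK6 alone. CDKN2A (p16) had 1 read in siCt 1 and 0 in the other libraries, and CDKN2B (p15) had 2 reads in siCt 1 and 0 in the others. A count of 0 allows up to 3 reads, or 0.0673 to 0.0758 CPM (reads scaled to library depth) here. MDA-MB-231 is known to lack the chromosomal region of both genes. CDKN2D (p19) had 1531 and 1872 normalized counts in siCt and 1211 and 1279 in siAxl, lower in both siAxl libraries (-0.44 ± 0.10, adjusted p = 0.0257). CDKN2C (p18) had 1359 and 1331 in siCt and 1211 and 1545 in siAxl, so that the groups overlapped (95% interval -0.24 to 0.29).

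SKP2 is the ubiquitin ligase subunit that marks p27 for destruction, CKS1B is its cofactor, and CKS2 is a close relative that also binds CDKs. All of these and CDKN3, a CDK phosphatase, had both siAxl libraries under both siCt libraries, as did 30.5% of all genes. CKS1B went from 3407 and 3684 normalized counts to 2749.5 and 3078 (-0.28 ± 0.08, adjusted p = 0.0407). CKS2 went from 3470.2 and 3948 to 2616 and 3131 (-0.37 ± 0.10, adjusted p = 0.0432). SKP2 just missed the threshold, with 1306 and 1461 in siCt, 1071 and 1180.1 in siAxl and an adjusted p of 0.0522. CDKN3 was at 82.1% of siCt (adjusted p = 0.0938).

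E2F1 to E2F3 are the activating E2F factors, E2F4 and E2F5 work mainly as repressors with the RB family, and E2F6, E2F7 and E2F8 repress without it. E2F1 had 3625 and 3568 normalized counts in siCt and 2571 and 2462 in siAxl. Replicates were close, the groups lay far apart, and E2F1 was at 70.0% of siCt (-0.52 ± 0.06, adjusted p = 0.00304). E2F8 went from 792 in both siCt libraries to 561 and 632, at 75.3% of siCt (-0.41 ± 0.09, adjusted p = 0.0215). The low-level E2F2 had a difference of like size, from 272 and 287 to 226 and 195, but a wider interval (-0.70 to -0.12, adjusted p = 0.0568).

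E2F3 (-0.06), E2F4 (-0.16), E2F6 (-0.07) and E2F7 (-0.11) were closer to 0 and did not pass, with adjusted p from 0.117 to 0.631. E2F5 was the E2F gene that was higher by sign, at 1.17-fold (0.23, adjusted p = 0.0882). It shares 969 exon bases with C8orf59 on the other strand. C8orf59 had 1555.75 reads on average against 686 for E2F5, and a log2 fold change of -0.18. Ordered by RPKM in siCt, E2F7 (49.4) and E2F1 (33.7) led, followed by E2F3 (18.9) and E2F4 (18), and then by E2F6 (4.92), E2F8 (4.48), E2F5 (2.49) and E2F2 (1.20). The DP partners, without which the classical E2Fs bind DNA poorly, did not pass. TFDP1 was at 99.7% of siCt (95% interval -0.14 to 0.13) and TFDP2 was 1.16-fold higher (adjusted p = 0.153).

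Of the RB family, p107 (RBL1) fell. RBL1, which is itself a known E2F target, had 3133 and 3391 normalized counts in siCt and 2446 and 2624 in siAxl, at 77.7% of siCt with no overlap (-0.36 ± 0.07, adjusted p = 0.014). RB1 had 4935 and 5445 in siCt and 4649 and 5023 in siAxl, and one siAxl value lay between the siCt values (95% interval -0.27 to 0.06, adjusted p = 0.362). RBL2 (p130), the family member that is most abundant in resting cells, had 2526 and 2582 in siCt and 2706 and 2797 in siAxl. Both of its siAxl values were the higher ones, but the difference did not pass (0.11 ± 0.06, adjusted p = 0.236). RBL2 shares 610 exon bases with AKTIP on the other strand. AKTIP had 789.5 reads on average against 2662.5 for RBL2, and a log2 fold change of -0.22.

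The MuvB subunits LIN9 and LIN54 and the factors MYBL2 (B-MYB) and FOXM1 were lower by sign, and none passed. LIN9 was at 81.9% of siCt (adjusted p = 0.0785) and FOXM1 at 87.5%, with 5609 and 5656 normalized counts in siCt and 4651 and 5208 in siAxl (adjusted p = 0.0877). MYBL2 had the smallest difference of these, with overlapping groups (95% interval -0.27 to 0.09). FOXM1 shares 781 exon bases with ITFG2 on the other strand. ITFG2 had 351.75 reads on average against 5289.75 for FOXM1, and a log2 fold change of 0.05.

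**Figure D3:**
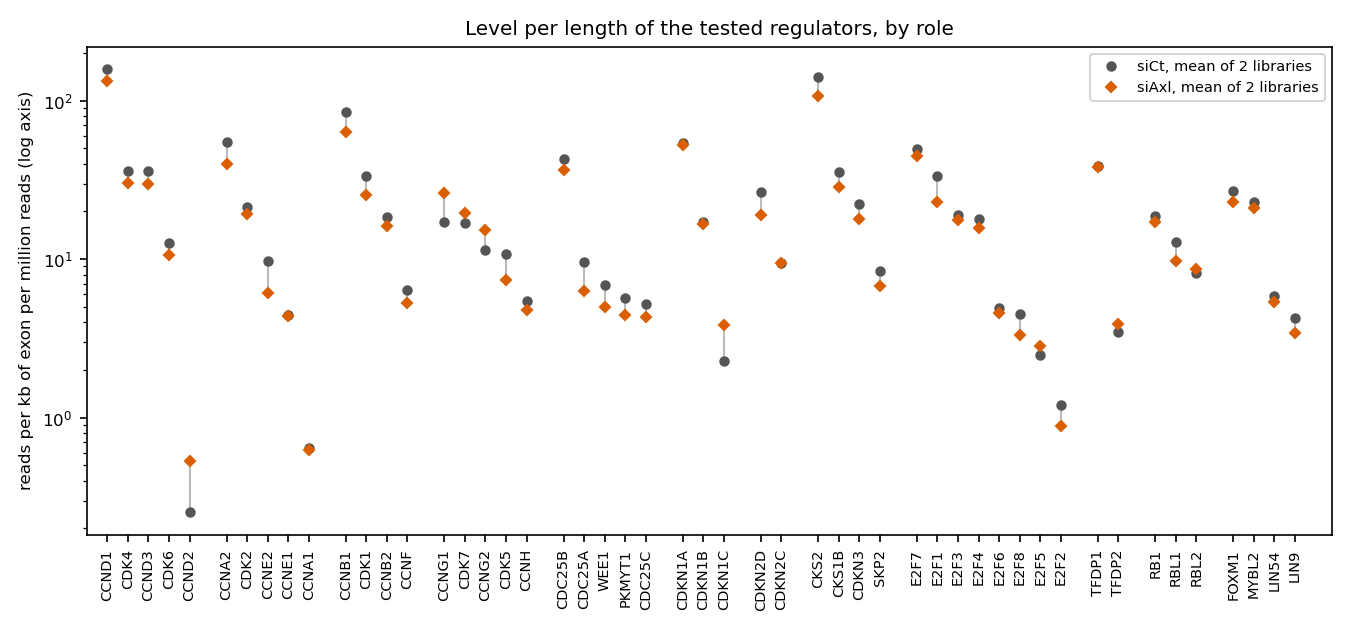
Level per length of the 50 tested regulators, as the mean RPKM of 2 siCt libraries (grey circles) and 2 siAxl libraries (orange diamonds) on a log axis, grouped by role. CCND1 (158 in siCt) and CKS2 (142) are the highest, CCND2 (0.252) and CCNA1 (0.647) the lowest, and the differences between groups are small beside the range of levels.

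The start regions of some of these genes carry short DNA words by which cell cycle genes are known to be controlled. They were read in RefSeq promoter windows of GRCh38.p14, which run from 250 bases before a start site to 50 bases after it and were at hand for 42 of the 52 regulators. Searched on both strands were 4 E2F words, TTCCCGC and TTGGCGC and also TTCGCGC and TTGCCGC. The CHR words, the element bound by MuvB, were TTTGAA and TTCGAA, and the CCAAT box is bound by NF-Y. Stretches before the start site are shown for E2F1, RBL1 and CDC25A, which fell and hold 2 matches to an E2F word there, for 3 mitotic or CKS genes that fell, and for CCNG1, which rose. Capitals mark E2F words in E2F1 and RBL1, E2F words and CCAAT boxes in CDC25A and CCNB1, CHR words and CCAAT boxes in CKS1B and CKS2, and CCAAT boxes in CCNG1, on either strand. The stretches, 5′ to 3′ on the strand of the gene, are E2F1 at chr20:33686386-33686438 (minus strand), RBL1 at chr20:37095998-37096042 (minus), CDC25A at chr3:48188431-48188547 (minus), CCNB1 at chr5:69167003-69167114 (plus), CKS1B at chr1:154974435-154974671 (plus), CKS2 at chr9:89311032-89311186 (plus) and CCNG1 at chr5:163437348-163437570 (plus, 1 of 2 windows of this gene).
E2F1: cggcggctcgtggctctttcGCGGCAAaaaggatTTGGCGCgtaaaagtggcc
RBL1: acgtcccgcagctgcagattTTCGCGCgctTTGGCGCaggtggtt
CDC25A: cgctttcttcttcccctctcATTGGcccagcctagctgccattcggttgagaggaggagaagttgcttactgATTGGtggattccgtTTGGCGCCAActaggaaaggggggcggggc
CCNB1: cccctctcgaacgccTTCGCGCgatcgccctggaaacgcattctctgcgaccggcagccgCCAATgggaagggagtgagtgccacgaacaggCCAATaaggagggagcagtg
CKS1B: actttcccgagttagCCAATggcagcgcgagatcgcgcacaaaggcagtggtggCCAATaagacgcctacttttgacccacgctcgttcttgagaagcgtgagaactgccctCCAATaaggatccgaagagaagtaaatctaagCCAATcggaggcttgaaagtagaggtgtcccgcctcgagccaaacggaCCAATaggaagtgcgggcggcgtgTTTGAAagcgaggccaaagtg
CKS2: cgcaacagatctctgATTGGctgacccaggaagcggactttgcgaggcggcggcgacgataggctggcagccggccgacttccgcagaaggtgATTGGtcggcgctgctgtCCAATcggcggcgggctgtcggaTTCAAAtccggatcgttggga
CCNG1: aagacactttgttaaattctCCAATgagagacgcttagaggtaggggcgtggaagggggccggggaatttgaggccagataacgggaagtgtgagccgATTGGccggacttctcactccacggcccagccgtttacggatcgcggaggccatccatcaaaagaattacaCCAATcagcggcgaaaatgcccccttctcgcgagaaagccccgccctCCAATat

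Counted back from the start site to their first base, the E2F words of E2F1 lie 33 and 19 bases before it, and those of RBL1 25 and 15 bases before it. In CDC25A the words at 43 and 40 bases are the same letters read on both strands and overlap. CDC25B, which also fell, had 2 matches to an E2F word in 1 of its 4 windows and is not shown. CKS1B and CKS2 each have a CHR word, at 30 and 29 bases, with the nearest CCAAT box at 54 and 52 bases.

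No window was at hand for CCNE2, WEE1, PKMYT1, E2F8 and CCND1, which fell, or for CCND2 and CDKN1C, which rose. FOXM1, E2F5 and CDK2, which did not pass the test, had none either. The shares by gene leave all of these out. An E2F word stood in 13.0% of all 35116 promoter windows and in 25% of the 64 windows of the regulators. By gene, it was found in 15.3% of all genes with a window, in 5 of the 12 lower regulators with a window and in 9 of the 25 that did not pass the test, and in none of the 3 higher ones. The windows of CCNA2, CDK4, CDK5 and CDKN2D, which fell, held none of these 4 E2F words, whereas those of TFDP1 and E2F7, which did not pass the test, did. A CHR word stood in 16.4% of all windows and 26.6% of the regulators' windows. By gene, it was found in 19.5% of all genes, in 3 of the 12 lower regulators and 10 of the 25 that did not pass. CCAAT boxes stood in 34.6% of all windows and 40.6% of the regulators' windows. By gene, they were found in 39.7% of all genes, in 9 of the 12 lower regulators and 11 of the 25 that did not pass. These are descriptions of letters in a window, and genes with several start sites had more windows to be matched in. The median share of G and C was 58.7% in all windows and 64.5% in those of the regulators. It was 65.3% for the lower regulators, 65.7% for those that did not pass and 56% for the higher ones. The part of this share in the matches was not tested.

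Around the 52 regulators, 84 further genes of the same pathway in 5 lists were read, and all 84 passed the filter. Of these, 29 were lower (34.5%) and 6 higher (7.14%), beside 7.91% and 10.8% of all genes tested. The E2F target genes of S phase, which encode the replication machinery, had 14 of 20 lower and none higher (70.0% lower), with a median log2 fold change of -0.26. CDC7, the kinase that fires replication origins, had 1820.0 and 1821 normalized counts in siCt and 1277 and 1262 in siAxl (-0.52 ± 0.06, adjusted p = 0.00339). MCM3, a part of the replicative helicase, went from 13893 and 13729 to 10244 and 10376 (-0.42 ± 0.05, adjusted p = 0.00376). Thymidine kinase 1 (TK1) was the 1 gene of this list that was higher by sign, with overlapping groups (0.01 ± 0.08).

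Targets of B-MYB and FOXM1 in G2 and mitosis were lower by sign in 18 of 18, beside 50.3% of all genes. The median of these targets, -0.25, was close to that of the S-phase list. Of them 4 passed as lower (22.2%, beside 7.91% of all genes) and none as higher. AURKB, the kinase of the chromosomal passenger complex, was at 76.9% of siCt (-0.38 ± 0.06, adjusted p = 0.00859) and KIF23, a kinesin of the midbody, at 81.3% (-0.30 ± 0.06, adjusted p = 0.0212). Another 22 genes carry out or regulate the degradation of cyclins and inhibitors. Of these, 7 were lower (31.8%) and 2 higher (9.09%), beside 7.91% and 10.8% of all genes. UBE2S (-0.38 ± 0.06, adjusted p = 0.00649) and UBE2C (-0.45 ± 0.08, adjusted p = 0.0121), the ubiquitin-conjugating enzymes of the anaphase-promoting complex, fell, and ANAPC1, its largest subunit, rose (0.41 ± 0.09, adjusted p = 0.0216). Of the 4 other MuvB and MYB genes, LIN52 (-0.52 ± 0.09, adjusted p = 0.0102) and MYBL1 (-0.44 ± 0.06, adjusted p = 0.00641) fell, and LIN37 was higher by sign (0.04 ± 0.17).

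CDKs and cyclins that work in transcription or outside the cycle were mixed, with a median of -0.01. Of 20 genes, 2 were lower (10%) and 4 higher (20%), beside 7.91% and 10.8% of all genes. Cyclin Y (CCNY), a membrane-bound cyclin, had 2401 and 2103 normalized counts in siCt and 4101 and 4393 in siAxl. It was 1.89-fold higher with no overlap (0.92 ± 0.08, adjusted p = 0.00179). CCNK (-0.28 ± 0.06, adjusted p = 0.0186) and CCNT1 (-0.30 ± 0.08, adjusted p = 0.0426), cyclins of kinases that act on RNA polymerase II, fell.

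**Figure D4:**
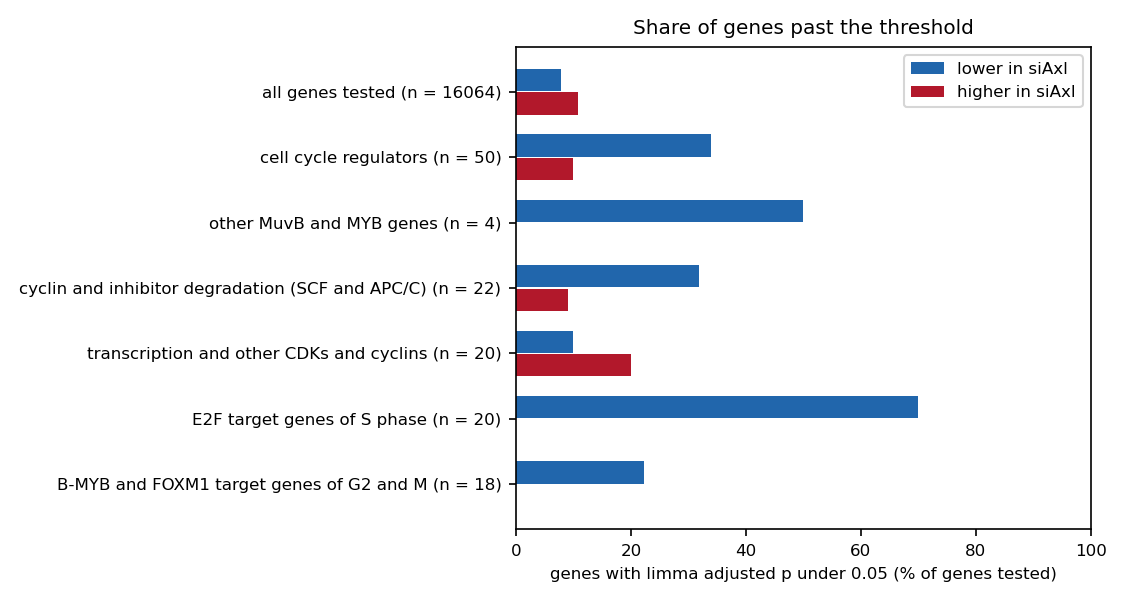
Percent of genes tested that were lower (blue) or higher (red) in siAxl at a limma adjusted p under 0.05, for all 16064 genes tested, the 50 regulators and the 5 further lists. The S-phase E2F targets stand at 70.0% lower, the regulators at 34%, and all genes at 7.91%, while the higher share of the regulators (10%) is close to that of all genes (10.8%).

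Within each group the regulators also moved with the replicate number. In siCt, 38 of the 50 were higher in replicate 2 than in replicate 1, by a median of 0.07 on the log2 scale, and in siAxl 39 of the 50, by 0.09. Against the siCt library of the same number, the median was -0.21 for siAxl 1 and -0.18 for siAxl 2. The mitochondrial share moved with the number as well. The part of that share in the result was not tested.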

How the data were processed

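RNA of 4 MDA-MB-231 libraries, 2 siCt and 2 siAxl, was grouped by sample title. The authors deposited 1 table of 63677 genes with normalized counts, a signal made by counting reads per gene and dividing by a size factor per library from DESeq2. The submitters' processing notes name CASAVA 1.8, TopHat2 2.0.10, HTSeq 0.5.3, DESeq2 1.4.5 and GRCh37. The annotation release and the strand setting are not given in the sources used here. Without strand, reads of overlapping genes on opposite strands cannot be told apart. The table's columns of fold changes, standard errors, Wald statistics, p-values and mean levels from the authors' own comparison were not used.

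In every library 100% of the values were whole multiples of 1 read (tolerance 0.01 reads), so that reads were recovered by division, 39574387 to 44585773 per library. Libraries of a group differed by more than sampling noise (chi-square per gene 20.1 and 18.2). The limit for a count of 0 is 3 reads and covers counting error only.

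The filter was filterByExpr of edgeR, applied to recovered reads, and its 16064 genes were tested with limma 3.58.1 (lmFit and eBayes with a trend, R 4.3.3) on log2(normalized count + 1), with no covariate and Benjamini-Hochberg adjustment over all 16064, at a threshold of 0.05. Fold changes on this scale understate changes of low genes, intervals are 95%, and percentages of siCt are ratios of mean normalized counts. The alternatives were edgeR 4.0.16 and DESeq2 1.42.0 on the recovered reads, other scalings, pseudocounts, filters and thresholds, leaving out each library, and a replicate block.

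The 52 genes, the 5 further lists and the words searched in promoters were chosen with earlier results of these data known. The text names all 52, with every library's value for those past the threshold and for the RB, INK4 and CIP/KIP families, and from each further list the 2 genes of smallest adjusted p in the direction of its median and the 1 of smallest in the other. RPKM used exon lengths of GENCODE release 29, which held 52526 of the 63677 identifiers and all 52 regulators. That release is of another build than the files', so RPKM is approximate. Promoter sequences are RefSeq's, on GRCh38.p14.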

Additional observations from a re-analysis of the deposited data

How the results depend on the processing

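Of the 17 lower and 5 higher regulators, edgeR, TMM scaling and pseudocounts of 0.5 and 8 gave the same counts. DESeq2 gave 17 and 4, beside 8.57% and 11.49% of all 12949 genes to which it gave an adjusted p. A mean of at least 100 normalized counts gave 18 and 5, beside 10.95% and 14.09% of all 12088 genes that met it. Scaling by library size gave 20 and 4, beside 10.9% and 9.56% of all genes. It moved the higher share of all called genes from 57.7% to 46.8%. Testing all genes with at least 1 read left 4 lower and 4 higher regulators, and 11 lower and 3 higher of the further pathway genes (29 and 6 in the report). A threshold of 0.01 left 4 and 4, and 9 and 1. Of all genes, 1.25% were lower and 2.79% higher with that filter, and 1.53% and 3.82% at that threshold. Replicate numbers of the libraries are shared between groups, and deviations of same-numbered libraries correlated across genes (r = 0.27), but with 2 pairs the numbers are not known to pair the samples. With a replicate block 32 regulators were lower and 8 higher, and 54 and 12 of the further genes, while 22.2% of all genes were lower and 23.3% higher. Leaving out 1 library at a time gave 5 to 23 lower and 4 to 5 higher regulators, beside 2.57% to 10.8% of all genes lower, and 12 to 37 lower and 1 to 6 higher further genes. The median of the regulators then ran from -0.25 to -0.11. Signs turned in genes near 0, none of them called. TFDP1 was 0.0037 in edgeR and 0.0039 with TMM scaling, and library size scaling gave CCNE1 -0.026, CDKN2C -0.0045 and TK1 -0.015. Without 1 library the values ran from -0.16 to 0.12 (CCNA1), -0.085 to 0.092 (CCNE1), -0.10 to 0.061 (CDKN1A), -0.073 to 0.034 (CDKN1B), -0.15 to 0.20 (CDKN2C), -0.14 to 0.00999 (E2F6), -0.050 to 0.039 (TFDP1), -0.19 to 0.0053 (MYBL2), -0.19 to 0.27 (LIN37) and -0.091 to 0.12 (TK1). The cause of these shifts was not tested. With 2 libraries per group the spread of a single gene is known poorly, and limma estimates it jointly over genes.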
